A study of Mus musculus with 6 samples.

Results

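PIWI proteins bind piRNAs, small RNAs that silence transposons in the germline, and Tudor proteins dock on methylated arginines of PIWI proteins and gather them in cytoplasmic germ granules. The 10 genes described here encode the mouse PIWI proteins Piwil1, Piwil2 and Piwil4, the Tudor proteins Tdrd1, Tdrd5, Tdrd6, Tdrd7 and Tdrd9, the RNA helicase Mov10l1 and the HMG-box protein Mael. They were chosen by name, and every mRNA probe whose RefSeq accession belongs to a member was taken, which gave 15 probes for 10 of the 19087 genes that the mRNA probes of the array name. In mouse testis, a perinatal wave of piRNAs directs DNA methylation of transposons in the nucleus, and a later wave, made in pachytene spermatocytes, works in the cytoplasm up to the round spermatid.

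RNA from whole testis of male C57/BL6 mice was measured at 6 days after birth (neonatal) and at 8 weeks (adult), with 3 biological replicates per age and 1 array for each. The samples were labelled with Cy3 and hybridized to an array of lncRNA and mRNA probes, and each replicate pooled mice of its age, with more mice in a neonatal than in an adult pool. The question put to the members was how genes known from the perinatal wave, genes known from both waves and genes known from the pachytene wave differ between the ages. At 6 days the tubules hold spermatogonia and no meiotic or haploid germ cells, whereas the adult testis holds all stages. In whole tissue, fewer cells of a type and less RNA per cell cannot be told apart.

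Levels are given as normalized log2 signal, the log2 of the background-subtracted signal after scaling to the array's 75th percentile, with values under -7.22 set to that floor. Between 65.9% and 69.8% of the spots on each array were marked as well above background by the scanner software. It also marked spots as outliers, and of the 90 spots of the member probes 26 carried this mark, 19 of them on the arrays of replicate 3. Outlier spots were left out of the test, so that most member probes were tested on 2 of the 3 pairs of arrays. The level of each array is given with these spots included. A gene was called where a probe differed at least 5-fold between the ages with an adjusted p (limma) of at most 0.05. The number of arrays limits the precision of every value.

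All 10 members had a probe whose spot was well above background on 1 array or more, and the neonatal and adult arrays did not overlap on any of the 15 probes, as was the case for 72.5% of the 19310 mRNA probes above background in the same way. With outlier spots left out, 8 of the 10 genes could be tested, and 3 of them, Piwil1, Tdrd5 and Tdrd6, were called higher in adult testis, while 13.2% of all 12996 genes tested were called higher. The single member called lower was Piwil4, beside 13.9% of all genes. At a fold change of at least 2, 5 of the 8 were called higher (24.1% of all genes) and 1 lower (36.5% of all genes). With outlier spots kept, all 10 could be tested, and Piwil1, Tdrd6, Tdrd7 and Mael were called higher (4 genes, beside 13.4% of all 16347 genes tested) and Piwil4 lower (1 gene, beside 15.8%). Without replicate 1, or without its adult array alone, 3 members could be tested and limma called 0 higher, with 2 higher at an unadjusted p of at most 0.05 whatever the fold. Without replicate 2, or without its adult array alone, these counts were 2, 0 and 1. Without replicate 1 and without its adult array, 846 of 8230 and 920 of 10483 mRNA probes were called higher. Without replicate 2 and without its adult array, they were 853 of 8064 and 911 of 10406. Piwil1, Tdrd5 and Tdrd6 had no test in these cases, because outlier spots left them with too few arrays. Fits that left out 1 array alone also dropped the pairing by replicate number. Without neonatal replicate 1 or 2 alone, Piwil1 and Tdrd6 were called higher among 5 members tested, beside 1524 of 9086 and 1541 of 8970 mRNA probes. Piwil4 was called lower each time, beside 922 to 1795 mRNA probes called lower among 8064 to 10483 tested. With outlier spots kept, 4, 5 and 4 members were called higher without replicates 1, 2 and 3, and Piwil1, Tdrd6 and Tdrd7 were among them each time. In these fits 2428, 2484 and 2461 of 19310 mRNA probes were called higher.

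The median log2 fold change of all 15121 mRNA probes tested was -0.40. It moved with the scaling between the arrays, to -0.64 after quantile normalization, -0.65 after a shift to the median and 0.02 after the normexp background correction. In the authors' log2 values the median was -0.84, but over 18506 mRNA probes, so the probes tested changed along with the scaling. Changes of Piwil1, Piwil2, Tdrd7 and Tdrd9 are therefore also given relative to the median of all mRNA probes. Relative to the median of -0.40, Piwil4 changed by -2.69, a value that rests on the floor in adults. Relative to the median with outlier spots kept, Mov10l1 changed by -1.37. Every member probe kept its sign under each scaling in which it was tested, both as fitted and relative to the median.

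**Figure D1:**
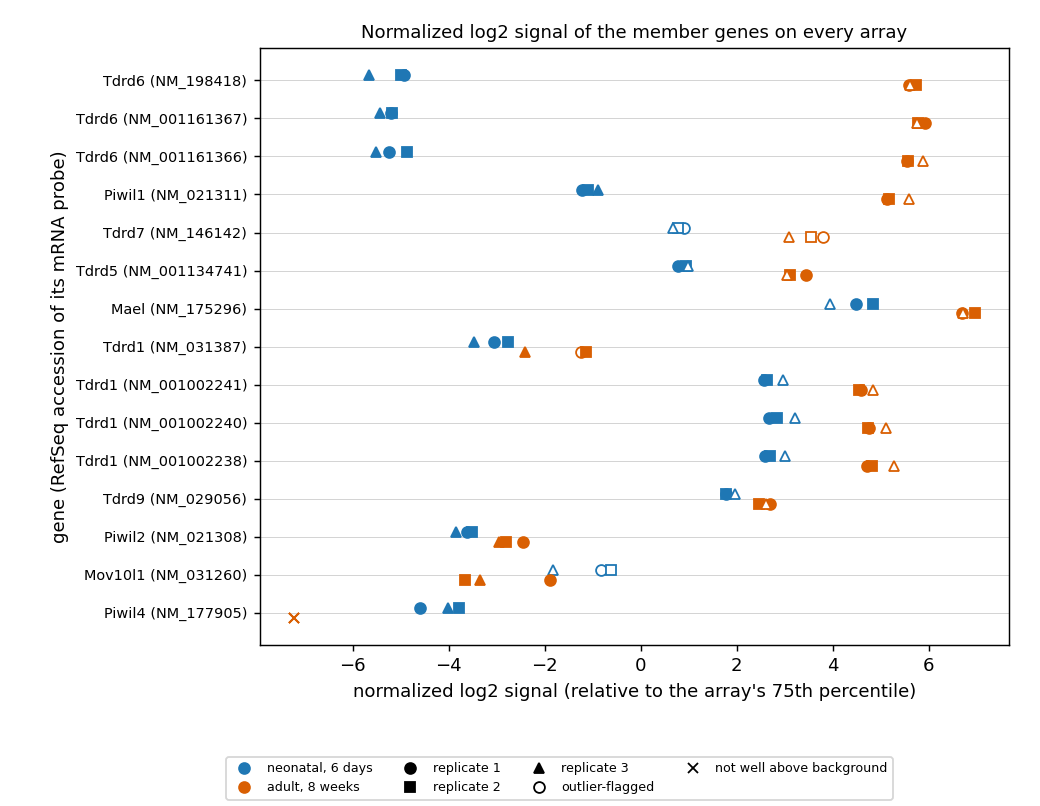
Normalized log2 signal of the 15 member probes (rows, with gene and RefSeq accession) on the 3 neonatal arrays (blue) and the 3 adult arrays (orange). Marker shapes give the replicate, open markers are outlier spots, and crosses are values not well above background; the ages do not overlap on any row (72.5% of all mRNA probes well above background), and Piwil4 and Mov10l1 are the genes lower in adults.

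Piwil4, also called MIWI2, is the nuclear PIWI protein of the perinatal wave and directs DNA methylation of transposons in fetal and newborn germ cells. In neonatal replicates 1 to 3 its normalized log2 signal reached -4.59, -3.78 and -4.02, and it was -7.22 on every adult array. All 3 neonatal spots were well above background, and no adult spot was, so the adult value is the floor and Piwil4 entered the test through the neonatal arrays alone. Against the lowest signal well above background on each adult array, Piwil4 was at least 6.54-fold lower in adults. The test does not concern this bound but the fit with adults at the floor (log2 fold change -3.10, limma adjusted p = 0.000467, 3 of 3 pairs). The adult values in that fit are constant, so its error holds the neonatal spread only. On the linear scale the neonatal signals were 122, 182 and 85.4, against 5.02, 6.34 and 4.94 in adults. In both scans the neonatal spots were well above background and the adult spots were not. The normexp correction with its offset of 50, which compresses signals of this size, gave a log2 fold change of -0.39 (adjusted p = 0.127) and ended the call. Over all alternatives its adjusted p lay between 0.000112 and 0.127.

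Piwil1, also called MIWI, is the PIWI protein of pachytene spermatocytes and round spermatids, where it carries pachytene piRNAs. The neonatal arrays gave -1.23, -1.10 and -0.90, and the adult arrays gave 5.13, 5.16 and 5.59. All adult values lay over 5 log2 units and all neonatal values below 0, with a spread within each age of 0.17 (neonatal) and 0.25 (adult; SD, n = 3 arrays each). Piwil1 rose by 6.31 ± 0.14 on the log2 scale (SE, 2 pairs, adjusted p = 0.000217), which is 79.5-fold and 6.71 relative to the median of all mRNA probes. The difference was 6.31 in the first scan and 6.48 in the second, the latter with an outlier spot.

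Piwil2, also called MILI, is the cytoplasmic PIWI protein of both waves, present from fetal germ cells to round spermatids. It measured -3.62, -3.52 and -3.86 in neonatal testis and -2.46, -2.81 and -2.96 in adult testis. Each adult array lay above each neonatal array, with the closest values 0.56 apart. The log2 fold change was 0.92 ± 0.13 (SE, 3 pairs, adjusted p = 0.00437), or 1.90-fold, so Piwil2 did not reach the fold threshold of 5 or that of 2. Relative to the median of all mRNA probes it was 1.32 higher in adults, and no less than 0.84 under any of the scalings. The 3 PIWI genes thus had 3 patterns on the same arrays: Piwil4 above background in neonates only, Piwil1 at its high level in adults only, and Piwil2 measured in both.

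Tdrd6 is a large Tudor protein of the chromatoid body, the germ granule of spermatids, and belongs to the pachytene-type factors. Its 3 probes gave the same pattern. The probe for NM_198418 read -4.94, -4.99 and -5.66 in neonates and 5.60, 5.74 and 5.61 in adults. The probe for NM_001161366 read -5.24, -4.88 and -5.52 against 5.54, 5.57 and 5.87, and that for NM_001161367 read -5.21, -5.17 and -5.43 against 5.92, 5.78 and 5.76. Neonatal spots were dim but well above background on all 3 arrays, and the adult spots of replicate 3 were outliers. The log2 fold changes were 10.63 ± 0.15, 10.61 ± 0.17 and 11.04 ± 0.15 (SE, 2 pairs, adjusted p between 0.000129 and 0.000147), the largest among the members. After normexp they were 9.97, 9.96 and 9.99. The differences between the arrays of the second scan were 11.27, 11.39 and 11.19.

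Tdrd5, which is needed for pachytene piRNA production and for the assembly of the chromatoid body, is also present in fetal germ cells. Its neonatal values were 0.77, 0.95 and 0.98 and its adult values 3.45, 3.10 and 3.05. The ages were over 2 log2 units apart, and outlier spots were confined to replicate 3. The fold change was 5.34 (log2 2.42 ± 0.20, SE, 2 pairs, adjusted p = 0.00258), just past the threshold. With the outlier spots kept it was 4.93, and Tdrd5 was then not called. The difference was 2.42 in the first scan and 2.07 in the second. Quantile normalization, the median shift, normexp and the authors' log2 values each ended the call through the fold change, at log2 values between 2.04 and 2.29, with the adjusted p still under 0.05. The methods' paired test on these 2 pairs ended it through the p (adjusted p = 0.106, with a range over all alternatives from 0.000311 to 0.106).

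Tdrd7, another chromatoid body protein with a LOTUS domain, had an outlier spot on all 6 arrays and could be examined with these spots kept only. The signals were 0.90, 0.78 and 0.66 in neonates and 3.79, 3.55 and 3.09 in adults. Again no adult value came within 2 log2 units of a neonatal value. With the spots kept, Tdrd7 rose by 2.69 ± 0.15 (SE, 3 pairs, adjusted p = 0.000172), a 6.47-fold change and 3.20 relative to the median of -0.50 over the 19310 mRNA probes tested with the spots kept. The difference was 2.83 in the first scan and 2.43 in the second. Tdrd7 was not called after the normexp correction (log2 2.26).

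Tdrd1, a multi-Tudor protein that binds Piwil2 in the cement between mitochondria, has 4 probes. The probe for NM_001002238 read 2.59, 2.69 and 3.01 in neonates and 4.72, 4.81 and 5.27 in adults. The probe for NM_001002240 read 2.66, 2.83 and 3.22 against 4.76, 4.72 and 5.10, and that for NM_001002241 read 2.57, 2.62 and 2.96 against 4.58, 4.55 and 4.84. These 3 probes moved alike, with log2 fold changes of 2.13 ± 0.14, 2.00 ± 0.15 and 1.97 ± 0.14 (SE, 2 pairs, adjusted p between 0.00151 and 0.00203). In the methods' paired test the adjusted p of NM_001002240 was 0.0644, which ended its call at a fold change of 2, and over all alternatives it lay between 0.000146 and 0.0644. The probe for NM_031387 read -3.06, -2.77 and -3.48 in neonates and -1.25, -1.15 and -2.42 in adults. Its change was smaller, 1.34 ± 0.21 (SE, 2 pairs, adjusted p = 0.0119), with differences of 1.81, 1.63 and 1.06 in the pairs of replicates 1 to 3. All 4 probes passed the fold threshold of 2 and none reached 5. For NM_031387 the adjusted p was 0.0540 without the replicate block, 0.108 without the filter on dim probes and 0.177 in the methods' paired test, and without neonatal replicate 1, 2 or 3 or adult replicate 1, each also without the pairing, it lay between 0.0717 and 0.148. Over all alternatives it lay between 0.00215 and 0.177.

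Tdrd9 joins a helicase and a Tudor domain and is known as a partner of Piwil4 in transposon silencing. It gave 1.77, 1.78 and 1.96 on neonatal arrays and 2.68, 2.47 and 2.61 on adult arrays. Unlike the signal of Piwil4, that of Tdrd9 was higher on every adult array than on every neonatal array. The log2 fold change was 0.80 ± 0.15 (SE, 2 pairs, adjusted p = 0.0185), or 1.74-fold, below both fold thresholds, and 1.20 relative to the median of all mRNA probes. After normexp the value relative to the median was 0.47. The adjusted p was 0.0653 without the filter on dim probes and 0.126 in the methods' paired test, and over all alternatives it lay between 0.00270 and 0.126.

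Mov10l1, the RNA helicase that feeds precursor transcripts into piRNA processing in both waves, was the other member lower in adults. Its values were -0.82, -0.63 and -1.82 in neonates, all from outlier spots, and -1.90, -3.65 and -3.35 in adults. Neonatal replicate 3 and adult replicate 1 were 0.08 apart, and the arrays within each age spread more than for the other members (SD 0.64 and 0.94, n = 3 each). Keeping outlier spots gave a log2 fold change of -1.88 ± 0.42 (SE, 3 pairs, adjusted p = 0.0140), a 3.67-fold difference that did not reach the threshold of 5. The pairs gave -1.08, -3.02 and -1.52, and without adult replicate 1 and the pairing the value was -2.41 (adjusted p = 0.00728) and passed both thresholds. Without replicate 3 the adjusted p was 0.0956, without neonatal replicate 1 or 2 or adult replicate 2 or 3, each also without the pairing, it lay between 0.0771 and 0.0824, and over all alternatives between 0.00662 and 0.112.

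Mael, a nuage protein with an HMG box that takes part in transposon silencing and in the export of piRNA precursors, read 4.47, 4.84 and 3.94 in neonates and 6.70, 6.96 and 6.71 in adults. The 3 adult arrays lay close together (SD 0.15) and all above the neonatal arrays (SD 0.45). Mael was 4.51-fold higher in adults (log2 2.17 ± 0.14, SE, 2 pairs, adjusted p = 0.00151), under the threshold of 5, and 5.17-fold higher with the outlier spots kept, which passed it. Quantile normalization gave the lowest log2 value, 1.41, and the alternatives lay between 1.41 and 2.37 (adjusted p between 8.66e-05 and 0.0421).

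By stage class, the perinatal member Piwil4 was called lower, and both pachytene-type members, Piwil1 and Tdrd6, were called higher, as was Tdrd5 among the members of both waves, or Tdrd7 and Mael with outlier spots kept. The 7 members known from both waves had log2 fold changes between -1.88 and 2.69 (both with outlier spots kept). Their difference from the other classes was not tested, since the classes rest on what was known of these genes.

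**Figure D2:**
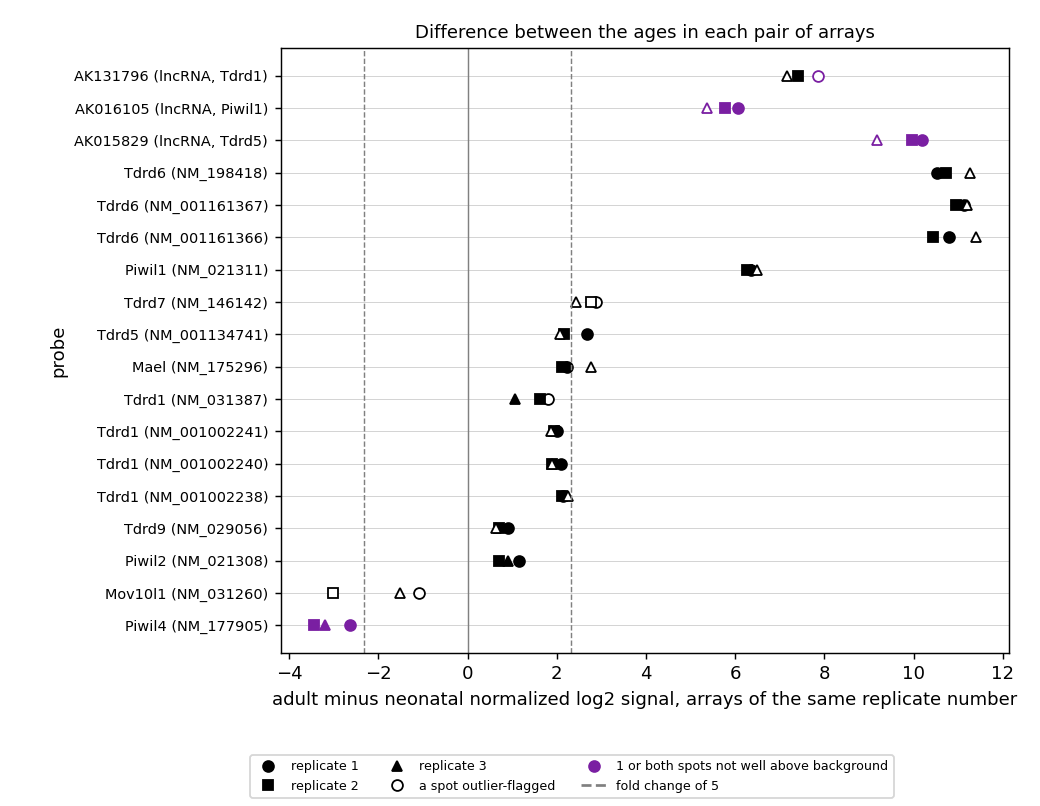
Adult minus neonatal normalized log2 signal of the 15 member probes and 3 lncRNA probes in each of the 3 pairs of arrays (marker shape). The lncRNA probes come from a list of lncRNAs that the study had called different between the ages. Open markers have an outlier spot, purple markers have a spot not well above background, and dashed lines mark a fold change of 5; Tdrd6 lies between 10.44 and 11.39, and Piwil4 and Mov10l1 lie below 0 in all 3 pairs.

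3 lncRNA probes carry transcripts that the study's annotation places beside a member. That annotation lists only lncRNAs that the study had called at least 5-fold different between the ages on these same arrays. A large difference was therefore a condition for being included here, and other lncRNAs beside a member were not examined. AK016105 (mm9, chr5:129241235-129241904, minus strand) is annotated as bidirectional to Piwil1. It was at the floor on all neonatal arrays and read -1.16, -1.45 and -1.85 in adults. AK015829 (mm9, chr1:158233627-158235090, plus strand) is annotated as bidirectional to Tdrd5, and it was also at the floor in neonates and read 2.97, 2.73 and 1.96 in adults. Both were well above background on adult arrays only. They were at least 56.8-fold (AK016105) and at least 1013-fold higher (AK015829) over the 2 adult arrays without an outlier spot. The adjusted p, 0.000289 (AK016105) and 0.000141 (AK015829), come from limma fits with neonates at the constant floor, not from these bounds. AK016105 and AK015829 passed the filter on dim probes through the adult arrays alone, and after normexp their log2 fold changes were lower, 4.22 and 8.61. AK131796 (mm9, chr19:56896452-56897029, plus strand), annotated as intergenic near Tdrd1, read -6.69, -6.28 and -6.63 in neonates, well above background on 2 of 3 arrays, and 1.16, 1.13 and 0.53 in adults. With outlier spots kept it rose by 7.47 ± 0.18 (SE, 3 pairs, adjusted p = 2.30e-05).

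In the pathway lists, 45 of 48 genes had an mRNA probe, 36 could be tested, 5 were called higher and 8 lower, beside 13.2% and 13.9% of all genes tested. None of the list counts was tested against these shares. Among germline piRNA pathway genes outside the Tudor family, 15 of 17 genes with a probe were tested, 4 were called higher and 4 lower, and the median log2 fold change was 0.42, against -0.37 over all 12996 genes tested. Putting genes with a bound at that bound left the median of each pathway list as it was. Dnmt3l, the cofactor of de novo DNA methyltransferases, had 2 probes that read between -2.56 and -2.11 in neonates and between 1.43 and 2.11 in adults. Its log2 fold changes were 4.01 ± 0.21 and 3.83 ± 0.18 (SE, 2 pairs, adjusted p = 0.000944 and 0.000769). For the probe with the larger change, the methods' paired test gave an adjusted p of 0.0774, which ended its call. Gtsf1, a zinc-finger cofactor of PIWI proteins, read 3.12, 3.30 and 4.32 in neonates and 6.58, 6.79 and 7.69 in adults and rose by 3.44 ± 0.10 (SE, 3 pairs, adjusted p = 0.000127). Pld6, an endonuclease of piRNA processing, and Tcfl5, a transcription factor of spermatocytes, were the others called higher.

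Of the genes called lower in that list, Pnldc1, the trimmer of piRNA 3′ ends, read -2.59, -2.52 and -2.20 in neonates and -5.78, -6.52 (not well above background) and -6.13 in adults, a log2 fold change of -3.60 ± 0.27 (SE, 2 pairs, adjusted p = 0.00200). Its call ended after normexp (log2 -2.08), without the filter on dim probes (adjusted p = 0.0524) and in the methods' paired test (adjusted p = 0.110), and over all alternatives the adjusted p lay between 0.00019 and 0.110. Morc1, a transposon silencing factor of fetal male germ cells, read -1.20 (an outlier spot), -4.15 and -3.35 in neonates and stayed at background in all adults. It was at least 8.51-fold lower in adults over the 2 remaining neonatal arrays (adjusted p = 0.00216 in the fit with adults at the floor, not for the bound). It passed the filter on dim probes through the neonatal arrays alone, and its call ended after normexp (adjusted p = 0.0959), without that filter (0.0545) and in the methods' paired test (0.112), with adjusted p between 0.000394 and 0.112 over all alternatives. Nanos2 and Tex19.1, both known from early male germ cells, were called lower as well, Nanos2 at least 7.79-fold (3 neonatal arrays). Nanos2 passed the filter on dim probes through the neonatal arrays alone. Morc1, Nanos2 and Piwil4 shared a pattern in which all adult arrays were at the floor. The pattern was not particular to them, since Mov10 and a probe of the marker gene Ret showed it as well.

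Mybl1, the transcription factor known to drive pachytene piRNA genes, gave -2.58, -3.12 and -3.54 in neonates and -1.56, -1.05 and -1.65 in adults. Its arrays did not overlap between ages, and the log2 fold change of 1.55 ± 0.33 (SE, 2 pairs, adjusted p = 0.0241) was under the threshold of 5. The adjusted p was 0.0597 without replicate 3, 0.185 without the filter on dim probes and 0.252 in the methods' paired test, and over all alternatives it lay between 0.00358 and 0.252. Ddx4, the germ cell RNA helicase also called Vasa, had 2 probes, which disagreed and consisted mostly of outlier spots. The probe for NM_001145885 overlapped between ages (1.19 to 2.89 in neonates and 2.04 to 2.93 in adults), while the probe for NM_010029 read 3.11, 3.05 and 2.12 in neonates and 5.05, 5.08 and 4.72 in adults. With outlier spots kept, their log2 fold changes were 0.38 ± 0.44 (adjusted p = 0.462) and 2.18 ± 0.18 (adjusted p = 0.000544; SE, 3 pairs each). Dazl, an RNA-binding protein of germ cells with outlier spots on all arrays, read 3.70, 3.88 and 3.37 in neonates and 3.20, 3.32 and 2.55 in adults. Its ages did not overlap, and with those spots kept the log2 fold change of -0.62 ± 0.13 (SE, 3 pairs, adjusted p = 0.0111) was under both fold thresholds.

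Among other Tudor-domain genes, 8 of 9 genes with a probe were tested, 1 was called higher and 0 lower by limma (3 higher and 4 lower at an unadjusted p of at most 0.05), and the median log2 fold change was -0.45. The gene called was Rnf17, a germ cell protein with a RING finger and Tudor domains, at -0.22, -0.43 and 0.11 in neonates and 2.29, 2.32 and 3.04 in adults (log2 fold change 2.63 ± 0.15, SE, 2 pairs, adjusted p = 0.00122). Its call ended in the methods' paired test after adjustment. Of the Argonaute clade and small RNA processing genes, 9 of 14 were tested, limma called 0 higher and 3 lower (2 higher and 5 lower at that unadjusted p), with a median of -1.37. Mov10, the somatic relative of Mov10l1, read -2.81, -2.68 and -2.71 in neonates and was not well above background in adults, at least 17.1-fold lower over the 2 neonatal arrays without an outlier spot. It passed the filter on dim probes through the neonatal arrays alone, and its call ended after normexp (log2 -2.11). Ago1 read 2.39, 2.41 and 2.74 in neonates and -0.27, -0.14 and -0.01 in adults, a log2 fold change of -2.61 ± 0.14 (SE, 2 pairs, adjusted p = 0.00106). Dicer1, which cuts miRNA precursors, was the other gene called lower, and the probe of Ago2 was at background on all 6 arrays.

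Of the arginine methylation genes, 4 of 5 were tested and 1 was called, lower, with a median of -0.59. It was Wdr77, the partner of Prmt5, with -3.23, -3.28 and -3.78 in neonates and -5.52, -5.89 and -6.15 in adults (log2 fold change -2.43 ± 0.12, SE, 3 pairs, adjusted p = 0.000264). Without adult replicate 3 and the pairing its log2 fold change was -2.28, and after normexp -1.01, both under the threshold of 5. Prmt5 itself, the methyltransferase that makes the marks Tudor domains read, overlapped between ages, at 3.38, 3.53 and 3.65 against 3.33, 3.25 and 3.46 (log2 fold change -0.16 ± 0.15, SE, 2 pairs, adjusted p = 0.407). The adjusted p was 0.0308 after quantile normalization and 0.0301 in the authors' log2 values, and over all alternatives it lay between 0.0301 and 0.455.

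**Figure D3:**
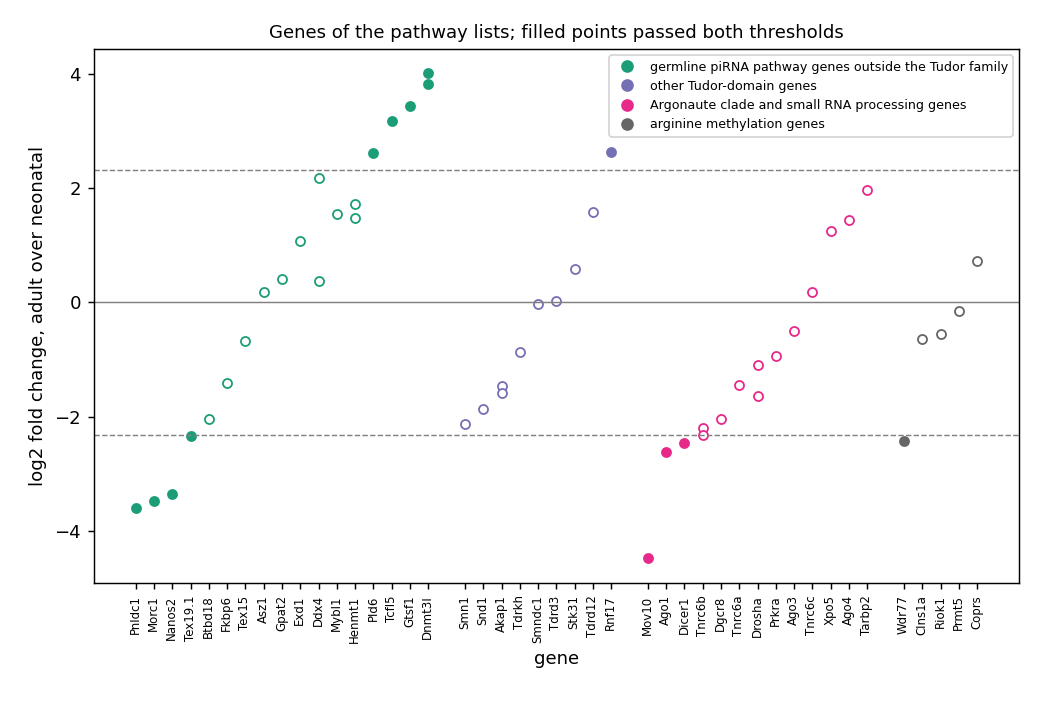
Log2 fold change (adult over neonatal) of the genes in the 4 pathway lists, 1 point per mRNA probe, ordered within each list (colour). Filled points passed both thresholds with outlier spots left out, open points did not or were measured with outlier spots kept only, and dashed lines mark a fold change of 5; the highest value is 4.01 (Dnmt3l), and the points of Mov10, Morc1 and Nanos2 are set by the floor in adults, where their spots were not well above background.

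The make-up of the tissue differed between the ages in marker genes, here summed over each list as multiples of the 75th percentile of the array, with outlier spots included and the probes of a gene averaged on the log2 scale. The brightest gene is the one with the highest mean over the 3 arrays of an age, and values of single genes are normalized log2 signals. Signals of different probes do not give an order of transcript abundance, so brightest refers to the signal alone. The spermatid list summed to 0.893, 0.924 and 1.60 in neonates and to 1054, 1225 and 1444 in adults, with Acr (neonatal) and Prm2 (adult) brightest and 6 of 6 tested genes called higher. In neonatal replicates 1 and 2 Tnp1 (-1.78 and -1.72) was brighter than Acr (-2.04 and -2.10), which led through replicate 3 (-0.29 against -1.49). All 7 spermatid genes had a spot well above background in neonates. The spermatocyte list summed to 25.4, 22.0 and 31.5 in neonates and 269.7, 283 and 336 in adults, with Ldhc (neonatal) and Pgk2 (adult) brightest and 4 of 8 tested genes called higher (Ccna1, Hspa2, Pgk2 and Spo11). Ldhc led in neonates through the outlier spot of replicate 3 (4.22 against 2.73 for Sycp1), and in replicates 1 and 2 Sycp1 was brighter (3.07 and 2.91 against 2.54 and 2.53). At an unadjusted p of at most 0.05, 7 were higher and 1 lower, Dmc1, with a log2 fold change of -2.06 ± 0.12 (SE, 3 pairs, adjusted p = 0.000420), although its adult spots of replicates 2 and 3 were not well above background. The sums of both lists were higher on every adult array than on every neonatal array, as were Piwil1 and Tdrd6. Their part in the changes of the members was not tested.

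Spermatogonial lists moved the other way. Undifferentiated spermatogonia genes summed to 12.7, 12.9 and 15.8 in neonates and 3.31, 3.41 and 4.24 in adults, with 4 of 8 tested genes called lower (Bcl6b, Lin28a, Nanos2 and Sall4) and 1 higher (Id4), Lin28a brightest, Nanos2 and Ret not well above background in adults and Gfra1 on no array. Differentiating spermatogonia genes summed to 44.9, 45.5 and 53.3 against 9.45, 10.54 and 11.04 over the 4 of 6 genes with a probe, with Stra8 (neonatal) and Kit (adult) brightest and 2 of 4 called lower (Sohlh1 and Stra8). In neonatal replicate 3 both Kit probes (4.38 and 4.63, outlier spots) were above Stra8 (4.30). The pan-germ cell list, with Dazl (neonatal) and Tex14 (adult) brightest, summed to 35.4, 34.9 and 38.3 against 35.6, 40.7 and 41.5, and limma called 0 of 2 tested (1 lower at an unadjusted p of at most 0.05). Neonatal replicate 3 had Tex14 above Dazl (3.81 against 3.37). The adult order rests on averaging the 2 probes of Ddx4, of which NM_010029 alone (5.05, 5.08 and 4.72) was above Tex14 (3.76, 3.86 and 4.28) on every adult array, and with the average Ddx4 was still brightest in adult replicate 2. The other Ddx4 probe read 2.04 to 2.93 in adults, so this order is one of probe signals and not of abundance. Both spermatogonial lists moved in the direction of Piwil4, and their part in its change was not tested either. Ddx4, Mybl1 and Nanos2 are in a pathway list as well as in a marker list.

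Of the somatic lists, Sertoli genes (Wt1 brightest) summed to 69.0, 70.2 and 40.3 in neonates and 16.4, 12.4 and 9.56 in adults, with 1 of 2 tested called lower (Fshr), and 4 of 7 with outlier spots kept. In neonatal replicates 1 and 2 Clu (4.66 and 4.73) was brighter than Wt1 (4.63 and 4.63), which led in neonates through replicate 3 (4.24 against 3.71). Peritubular myoid genes (Myh11 brightest, Cnn1 at background on all arrays) summed to 21.7, 22.0 and 27.1 against 4.80, 4.35 and 6.56, with 0 of 4 called by limma (3 lower at an unadjusted p of at most 0.05), and endothelial genes (Cdh5 brightest) to 7.67, 8.79 and 14.9 against 2.15, 1.77 and 3.25, with 2 of 5 called lower (Cdh5 and Pecam1). Leydig genes (Hsd3b1 brightest in neonates and Insl3 in adults) summed to 32.0, 35.1 and 30.3 against 82.8, 69.3 and 63.9, with 0 of 4 called by limma (2 higher and 1 lower at that unadjusted p) and 2 of 8 higher with outlier spots kept (Hsd3b6 and Insl3). Macrophage genes (C1qa brightest in neonates and Mrc1 in adults) summed to 8.20, 8.37 and 8.61 against 6.92, 6.99 and 8.06, with 0 of 2 called by limma (1 lower at that p), and blood genes (Hba-a1 brightest in neonates and Alas2 in adults) to 4.66, 5.94 and 2.18 against 2.43, 2.29 and 1.97, with 0 of 1 called by limma (1 higher at that p). In adult replicate 3 C1qa (1.75) was brighter than Mrc1 (0.96). With outlier spots kept, 1 of 2 blood genes, Hba-a1, was called lower (log2 fold change -3.78 ± 0.18, SE, 3 pairs, adjusted p = 0.000136). At least 1 gene of every marker list was well above background in both ages, and the part of the somatic lists in the changes of the members was not tested.

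The genes most like each PIWI gene over the 6 arrays were found by the Euclidean distance between log2 signals centred on the mean of each probe, among 14707 probes of other genes well above background on every array. For Piwil1 they were Dnajb3 (distance 0.138), Gm14632 (0.1899) and Fam205c (0.2001), whose adult mean lay 6.31, 6.32 and 6.33 above their neonatal mean. For Piwil2 they were Mapkbp1 (0.169), Cfap300 (0.188) and Actl6a (0.197), with differences of 0.93, 1.05 and 0.96. That these differences lie near those of Piwil1 and Piwil2 follows from the choice by distance. Piwil4 was not compared, since its adult spots were at background.

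Promoter sequences from RefSeq (GRCm38.p6) were at hand for 8 of the 10 members, with 13 start sites, and not for Piwil2 and Tdrd6. The 250 bases before each start were searched on both strands for 5 motifs. The core of the MYB family motif, AACTG, was found before 7 of the 13 starts and is in 39.1% of all 32851 promoters of this length. The E-box CACGTG was found before 6 of the 13, in Piwil1, Tdrd1, Tdrd9, Mov10l1 and Mael, and is in 6.02% of all. In Tdrd1 it is the same site before neighbouring starts, so that 5 of 8 members hold it, against 6.86% of all genes. The E2F-type motif TTCCCGC was found in Tdrd5 and is in 3.82% of all. The TATA motif, TATAAA, was found in Piwil4 and Tdrd7 and is in 12.4% of all, and the full CRE, TGACGTCA, was found in no member and is in 1.55% of all. No match overlapped a match of another motif, while in Tdrd7 the TATA motif matched on both strands in overlapping bases, 31 and 29 before the start. The E-box was found both in members higher in adults and in Mov10l1, whose values were lower.

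Shown here are the bases before the starts of Piwil1 and Mael, which were higher in adults and hold both the MYB core and the E-box, and before the second start of Piwil4, which was lower, 5′ to 3′ on the strand of the gene. The second start of Tdrd1, not shown, holds both motifs as well, and Tdrd1 was higher in adults at a fold change of at least 2. Capitals mark the motifs, among them the MYB core of Piwil1 and Mael and the TATA motif of Piwil4 on the opposite strand.
Piwil1, chr5:128735996-128736245, plus strand: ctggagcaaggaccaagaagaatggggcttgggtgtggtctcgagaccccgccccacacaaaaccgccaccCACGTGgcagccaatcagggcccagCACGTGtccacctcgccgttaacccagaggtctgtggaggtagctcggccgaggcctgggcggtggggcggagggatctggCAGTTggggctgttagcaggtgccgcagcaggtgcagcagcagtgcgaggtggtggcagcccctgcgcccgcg
Mael, chr1:166238745-166238994, minus strand: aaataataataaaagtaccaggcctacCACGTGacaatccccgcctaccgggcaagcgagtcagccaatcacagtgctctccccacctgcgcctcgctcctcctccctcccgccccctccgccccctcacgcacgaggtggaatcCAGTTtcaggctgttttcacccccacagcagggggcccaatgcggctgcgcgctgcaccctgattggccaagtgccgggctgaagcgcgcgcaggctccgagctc
Piwil4, chr9:14740673-14740922, minus strand: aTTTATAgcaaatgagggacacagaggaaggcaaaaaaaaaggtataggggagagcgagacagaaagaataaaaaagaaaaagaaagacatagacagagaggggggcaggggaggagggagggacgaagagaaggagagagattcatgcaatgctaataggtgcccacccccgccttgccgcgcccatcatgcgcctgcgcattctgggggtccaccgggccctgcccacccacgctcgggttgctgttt
In Piwil1 the E-boxes began 179 and 154 bases before the start, and the MYB core 73 bases before it. In Mael the E-box began 223 and the MYB core 105 bases before it, and in Piwil4 the TATA motif began 249 bases before it. The other start of Piwil4, not shown, has the MYB core 218 bases before it and holds no CpG. The ratio of observed to expected CpG was 0.567 in this stretch of Piwil1, 0.75 in Mael and 0.575 in Piwil4, against a median of 0.374 over all promoters.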

How the data were processed

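Scanner files of 6 arrays were used, 3 per age, with the group and replicate number taken from the sample titles. The authors labelled cDNA made from the RNA with Cy3 and scanned the arrays. Feature Extraction 10.5.1.1 gave the background-subtracted and detrended intensity of each spot that the authors deposited, not normalized between arrays. The log2 table that the authors deposited as well, with column medians between 1.20 and 1.30, matches within 0.001 the log2 of the signal, floored at 5, less an array constant for 99.8% of its values on each array. No fold change or p-value is taken from the study's own tables. They did decide which lncRNAs beside a member are reported, since the annotation used lists only lncRNAs past the study's thresholds.

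Here intensities were averaged over the spots of a probe, control spots left out, divided by the 75th percentile of the array over its lncRNA, ultraconserved-region and mRNA probes, floored at the highest scaled value of a signal of 5 (-7.22) and put on the log2 scale. limma 3.58.1 (R 4.3.3) tested the 24517 probes, 15121 for mRNA and 9396 for lncRNA, that exceeded background clearly on 1 array or more and kept 2 complete pairs without outlier spots. The block was the replicate number, since the study's own test was paired, and p-values were adjusted over all probes by Benjamini-Hochberg. The pools of the 2 ages were different mice, so arrays of the same number share no animals. Deviations from the mean of each age correlated at 0.303, 0.234 and 0.576 between arrays of the same number, and at 0.259 and 0.292 between the other arrays of the first scan. Between arrays of different scans they correlated at -0.463 to -0.370. Both arrays of replicate 3 make up the second scan, so its number and scan cannot be told apart. Array positions repeat between the scans, from which each scan was taken as a slide. Where no spot of an age was well above background, the fold is a bound, the mean of the brighter age against, on each dim array, the higher of the probe's own value and the lowest one well above background. An adjusted p given for such a probe comes from the fit with the dim age at the floor and does not test the bound.

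RefSeq (GRCm38.p6) named 21905 of 22464 mRNA probes (97.5%), and the study's annotation 45 more, Piwil4 among them. The members and lists were chosen with earlier results of these data known. Named genes are the members, Ddx4, Dazl, Mybl1 and Prmt5, the 2 largest called rises and falls of each pathway list, the brightest gene of each marker list in each age or on an array, marker genes at background on all arrays, lncRNAs beside a member and the genes most like a PIWI gene. Ago2, Ret, Dmc1 and the other called genes of the lists were named, and counts at unadjusted p, medians at bounds, the brightest genes by age and by array and the shares without overlap were added, after values were seen. No mRNA probe was found for Spocd1, Dnmt3c, Tdrd15, Dmrtb1, Rhox13, Rhox5 and Hbb-b1. Alternatives covered the floor, normalization, background correction, filter, block, scan, prior variance, test, outlier spots, fold threshold and left-out arrays. Tables were handled with pandas 2.3.3 and numpy 2.4.6 (Python 3.11.15).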

Additional observations from a re-analysis of the deposited data

How the results depend on the processing

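No log2 fold change of a member changed sign under any alternative in which it was tested, and neither did those of AK015829, AK016105 and the 18 other probes of named genes followed through the alternatives. Of the counts, 3 member genes higher, 1 lower and 13 pathway list genes called, the normexp correction with an offset of 50 gave 0 members lower in limma, since the fold change of Piwil4 was under the threshold at any p, and 6 pathway list genes. After normexp 1499 mRNA probes were called higher and 1036 lower among 15121 tested. The offset compresses low signals. At a fold change of at least 2, 5 members were higher and 26 pathway list genes called, beside 24.1% of all genes higher and 36.5% lower. By the adjusted p alone, these counts were 7 and 28, beside 4495 mRNA probes called higher and 6928 lower among 15121 tested. Leaving out 1 replicate or 1 array at a time gave 0 to 3 members higher and 4 to 12 pathway list genes, because outlier spots of replicate 3 then left as few as 2 members and 7 list genes with a test. These fits called 846 to 1921 mRNA probes higher and 922 to 2152 lower, among 8064 to 15048 tested. Keeping outlier spots gave 4 members higher and 14 list genes, beside 13.4% of all genes higher and 15.8% lower. For Tdrd7 and Mov10l1, not tested with outlier spots left out, each alternative was combined with keeping them, chosen after seeing the data. In the authors' log2 values Mov10l1 changed by -2.14 (adjusted p = 0.0109). Without the replicate block the counts were 3, 1 and 13, and the genes called at a fold change of at least 5 were the same, 4 members, 13 pathway list genes and 20 marker genes. Of 15143 mRNA probes tested that way, 1915 were called higher and 2038 lower. At a fold change of at least 2, the Tdrd1 probe for NM_031387 was lost without the block (adjusted p = 0.0540). With the scan as the block the counts were again 3, 1 and 13, beside 1911 mRNA probes higher and 2078 lower among 15143. The methods' paired t-test called 2 members higher, 1 lower and 11 list genes at its threshold, and 2, 1 and 9 after Benjamini-Hochberg. Of 15121 mRNA probes it called 1794 higher and 1742 lower at its threshold, and 1479 and 1265 after Benjamini-Hochberg. Of the mRNA probes called, 47.9% were higher in adults, 59.1% after normexp and 37.0% in the authors' log2 values. The methods' paired t-test after adjustment also ended the calls of Dnmt3l, Rnf17 and Cdh5, leaving out the filter on dim probes that of Cdh5 (adjusted p = 0.0530, between 0.000245 and 0.110 over all alternatives), and normexp that of Mov10. Quantile normalization lowered the log2 fold changes of Mael to 1.41 and Gtsf1 to 2.84, and normexp those of Pgk2 to 11.42 and Prm2 to 12.85. Signals near background limit Piwil4, Morc1, Nanos2, Mov10, AK015829 and AK016105 to bounds.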
